A study of Homo sapiens with 6 samples.

Results

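The snoRNA host noncoding genes are long noncoding RNA genes whose introns carry small nucleolar RNAs (snoRNAs). Members were all entries of the expression table whose gene name was SNHG followed by a digit, or GAS5, DANCR, ZFAS1 or EPB41L4A-AS1, whatever their biotype. The rule gave 29 of the 58735 genes in the table, under 28 symbols, since SNHG28 stands for 2 entries. Their biotypes in the annotation were processed transcript for 11, lincRNA for 10, antisense for 6, sense overlapping for 1 and protein coding for 1, which is one of the SNHG28 entries. Of the 29 genes, 27 had reads in at least 1 sample and 2, SNHG27 and the noncoding SNHG28 entry, were at 0 in all 6.

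AZ-521, the cell line used, is labelled as gastric cancer with a WT genotype, and cell banks list it as derived from a duodenal carcinoma. The 3 PD samples came from cells given 10 µM of the plant saponin platycodon D (PD) for 48 h. The 3 DMSO samples came from cells given the solvent for the same time, and all cells grew in the same serum-containing medium. Polyadenylated RNA was sequenced, and the authors deposited 1 FPKM value (fragments normalised to gene length and sequencing depth) for each gene and sample.

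A snoRNA guides the chemical modification or cleavage of ribosomal and other RNAs in the nucleolus. Box C/D snoRNAs (symbols starting with SNORD) direct ribose methylation, and box H/ACA snoRNAs (SNORA) direct the conversion of uridine to pseudouridine. In human cells most of them are cut from the introns of a host gene, and the spliced exons of the host are a by-product. In several noncoding hosts, GAS5 among them, the spliced RNA begins with a pyrimidine tract like that of ribosomal protein mRNAs, is translated over short reading frames and is removed by nonsense-mediated decay, so that its level depends on decay as well as on transcription.

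Reads over genes numbered from 14915538 to 16341687 per sample. Deviations from the group mean correlated negatively with transcript GC content across genes in DMSO replicate 1 and PD replicate 3 (Spearman rho = -0.637 and -0.524). The rho was 0.462 and 0.535 in DMSO replicates 2 and 3, and 0.606 and 0.021 in PD replicates 1 and 2. PD replicate 1 was thus as far from PD replicate 2 as PD replicate 3 was, in the other direction. Deviations within a group cancel out, so the sign alone does not single out a sample. The members' values without DMSO replicate 1 and PD replicate 3 follow those of the single genes. The epithelial markers EPCAM, CDH1, KRT8, KRT18 and KRT19 all had group means under 1 FPKM (0 for the last 2), and the 7 stomach markers examined lay between 0 and 0.305 FPKM. Of the 6 intestinal markers only CDX2 passed 1 FPKM (1.27 in DMSO, 1.18 in PD). CDX1 was at 0, and VIL1, MUC2, LGR5 and FABP1 were at 0.0666 FPKM or less. Of the 4 fibroblast markers COL3A1 stood at 42.9 and 40.6 FPKM, while COL1A1, PDGFRB and DCN were all at 0.659 FPKM or less, and markers of blood and endothelium were at or near 0. In bulk samples fewer cells of a kind and less RNA per cell cannot be told apart, and since no label says that replicates were separate cultures, p-values cover the spread among these 6 samples and no more.

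The snoRNAs below are 3 of those inside hosts that fell, printed to show what the introns of these genes carry. They are the GENCODE 29 entries, written 5′ to 3′ on the strand of the gene, with T for U. Capitals mark box C (TGATGA, searched in the first 20 bases) and box D (CTGA, in the last 20) in the 2 SNORD genes, and the ACA letters in the last 10 bases of the SNORA gene. These letters were found by the same search in 67.6% of the 278 SNORD entries and 89.8% of the 147 SNORA entries of the annotation. All 3 entries shown have them. In the same hosts that fell, the search missed them in SNORD22, SNORD26 and SNORD28 of SNHG1 and in SNORD99 and SNORA44 of SNHG12.
SNORD50B in SNHG5, chr6:85677589-85677658, minus strand: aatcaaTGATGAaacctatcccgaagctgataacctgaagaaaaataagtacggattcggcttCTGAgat
SNORD27 in SNHG1, chr11:62855012-62855083, minus strand: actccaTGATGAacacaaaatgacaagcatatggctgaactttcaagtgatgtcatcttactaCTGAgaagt
SNORA24 in SNHG8, chr4:118279190-118279320, plus strand: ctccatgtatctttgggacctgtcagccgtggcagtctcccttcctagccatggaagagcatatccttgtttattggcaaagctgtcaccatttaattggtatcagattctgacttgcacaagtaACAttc

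The libraries measured the hosts, not the snoRNAs. The tested hosts hold 45 snoRNA entries, of which 29 had 0 reads in all 6 samples and 16 had reads, at most 32 in 1 sample. SNORD50B, SNORD27 and SNORA24 were among those at 0. No level of a mature snoRNA could therefore be read from these data, and a value of 0 here says nothing about the snoRNA, which has no poly(A) tail. Entries of biotype scaRNA (small Cajal body RNA) were counted as snoRNA entries throughout, and some snoRNAs, such as SNORA16A and SNORA17B, have more than 1 entry. Every tested host except GAS5 held at least 1 entry in this annotation. The only entries of SNHG10 and SNHG20 were the scaRNA genes SCARNA13 and SCARNA16.

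PD was compared with DMSO to see which of these genes changed after the saponin. Lower RNA levels in the PD samples were found for 7 members: SNHG8, SNHG5, SNHG12, SNHG11, SNHG15, GAS5 and SNHG1. Their mean FPKM in PD was between 55.2% and 80.6% of that in DMSO. None rose. The test was limma's two-sided moderated test on log2(FPKM + 1), with Benjamini-Hochberg adjustment over 13579 genes whose FPKM reached 1 in 3 or more samples. "Rose" and "fell" stand for an adjusted p under 0.05, and log2 fold changes are PD minus DMSO on that scale, which makes changes of genes with low FPKM look smaller.

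Of the 29 members 21 passed the filter. Of these 7 fell, against 12.7% of all genes tested, and 0 rose, against 14.3%. A change of at least 2-fold, the size named in the labels, was reached by 0 members in either direction, against 0.979% (fell) and 2.84% (rose) of all genes. The log2 fold change was below 0 in 16 of the 21, against 49.9% of all genes, and its median was -0.31, against 0.00 for all genes. In 11 members all PD samples lay below all DMSO samples, against 21.9% of all genes, and in 2 (SNHG10 and SNHG20) all lay above, against 22.5%. Among the 1411 other noncoding genes tested, 12.0% fell and 15.3% rose, and the median was 0.04. Counts over the 21 leave out the members under the filter and are a description, with no test over the members.

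The members include some of the most abundant noncoding RNAs of these cells. By mean FPKM in DMSO, GAS5 ranked 2 among the 1432 noncoding genes tested, SNHG8 ranked 7, SNHG1 ranked 8, ZFAS1 ranked 10 and SNHG6 ranked 20. The 29 genes together held 18742, 22068 and 23611 reads in DMSO replicates 1 to 3, which was 0.126%, 0.142% and 0.144% of reads over genes. In PD replicates 1 to 3 they held 15384, 15124 and 16148 reads, or 0.10%, 0.0982% and 0.102%. Summed FPKM was 416, 448 and 456 in DMSO and 330, 318 and 356 in PD. In each of these sums all PD samples were below all DMSO samples.

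**Figure D1:**
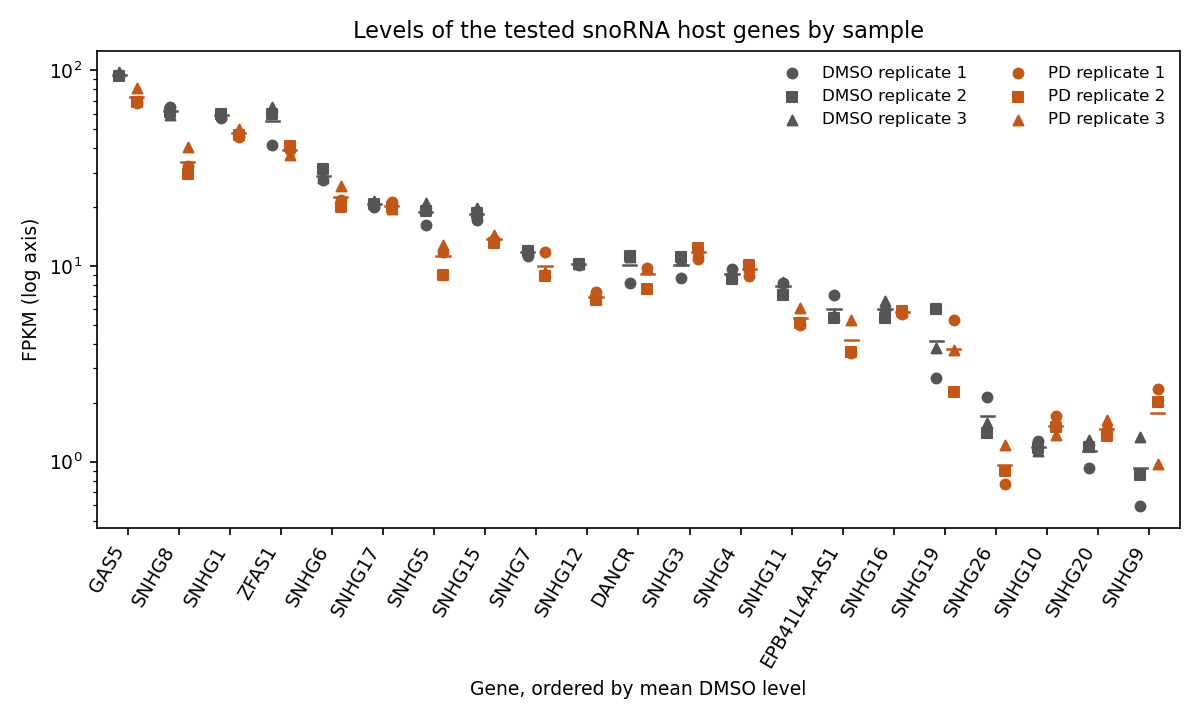
FPKM (log axis) of the 21 tested members in each sample, ordered by mean DMSO level; grey marks are DMSO samples, orange marks PD samples, the shape gives the replicate number and bars are group means. The PD marks of SNHG8, SNHG5, SNHG12 and SNHG1 lie below every DMSO mark of the same gene, and SNHG17 overlaps.

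The members that carry box C/D snoRNAs, or are known to, were led by GAS5, a growth-arrest transcript that accumulates when cells stop dividing or translation is blocked. It stood at 94.6, 93.8 and 97.7 FPKM in DMSO replicates 1 to 3 and at 68.5, 69.2 and 81.6 FPKM in PD. All PD samples lay below all DMSO samples, with PD replicate 3 nearest to the DMSO range. GAS5 fell to 76.7% of its DMSO level (log2 fold change -0.38 ± 0.10 SE, adjusted p = 0.0256, limma). The annotated GAS5 gene (chr1:173863900-173868882, minus strand) holds no snoRNA entry of its own in this table, although it is a well-known box C/D host.

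SNHG1 holds 7 snoRNA entries, 6 of them SNORD genes, and is also known as UHG. Its FPKM was 57.0, 60.1 and 60.2 in DMSO and 45.6, 47.0 and 50.4 in PD, with no overlap. SNHG1 fell to 80.6% (log2 fold change -0.31 ± 0.08 SE, adjusted p = 0.0314, limma), the smallest change among the 7. SNHG5, host of the SNORD50B entry, was at 16.1, 19.2 and 21.1 FPKM in DMSO and at 11.9, 9.05 and 12.9 FPKM in PD. Here the highest PD sample was below the lowest DMSO sample, DMSO replicate 1. SNHG5 fell to 59.9% (log2 fold change -0.70 ± 0.15 SE, adjusted p = 0.0145, limma).

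ZFAS1 and SNHG6, abundant C/D hosts too, had lower means in PD but did not pass. ZFAS1, transcribed away from the zinc finger gene ZNFX1 and host of SNORD12, SNORD12B and SNORD12C, had 41.5, 59.8 and 64.9 FPKM in DMSO and 39.1, 41.1 and 37.0 in PD. All PD samples were below all DMSO samples, but DMSO replicate 1 lay within 1 FPKM of PD replicate 2 and far below the other DMSO samples. The difference was -0.47 ± 0.16 SE (adjusted p = 0.0711, limma), and without DMSO replicate 1 the adjusted p was 0.00515. SNHG6 had 27.6, 31.4 and 28.1 FPKM in DMSO and 21.8, 20.2 and 25.8 in PD, again without overlap. Its log2 fold change was -0.35 ± 0.11 SE (adjusted p = 0.0532, limma), and it passed in 10 of 19 alternative settings.

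SNHG8, a host of a box H/ACA snoRNA, had the largest change among the 7 members that fell. It measured 65.0, 61.4 and 59.2 FPKM in DMSO and 32.5, 29.5 and 40.4 FPKM in PD, so that the highest PD sample was well under the lowest DMSO sample. SNHG8 (chr4:118278709-118279823, plus strand), the host of SNORA24, fell to 55.2% (log2 fold change -0.85 ± 0.12 SE, adjusted p = 0.00351, limma). SNHG12, host of 4 SNORA entries and SNORD99, had closely spaced replicates, at 10.1, 10.3 and 10.2 FPKM in DMSO and 7.40, 6.75 and 6.79 FPKM in PD. It fell to 68.5% (log2 fold change -0.49 ± 0.08 SE, adjusted p = 0.00533, limma).

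SNHG15, host of SNORA9, had 17.1, 18.6 and 19.9 FPKM in DMSO and 13.6, 13.1 and 14.3 in PD, with the groups apart. It fell to 74.0% (log2 fold change -0.41 ± 0.09 SE, adjusted p = 0.0152, limma). SNHG11, which holds SNORA60 and SNORA71E, was at 8.19, 7.09 and 8.32 FPKM in DMSO and 4.98, 5.09 and 6.12 in PD. All 3 PD samples were lower than the lowest DMSO sample. SNHG11 fell to 68.6% (log2 fold change -0.47 ± 0.11 SE, adjusted p = 0.0177, limma).

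Other H/ACA hosts of similar abundance did not pass. SNHG17, whose gene holds the SNORA71A to SNORA71D entries and lies a short way from SNHG11 on chromosome 20, had 20.0, 20.7 and 21.4 FPKM in DMSO and 21.3, 20.0 and 19.5 in PD. The groups overlapped fully. Its log2 fold change was -0.03, with a 95% interval from -0.22 to 0.16. SNHG3 (SNORA73A and SNORA73B) had 8.68, 11.1 and 10.7 FPKM in DMSO and 10.9, 12.4 and 12.0 in PD, with only DMSO replicate 2 reaching into the PD range. The difference of 0.20 did not pass (95% interval -0.06 to 0.46, adjusted p = 0.224, limma). SNHG3 lies inside RCC1 on the same strand, so reads of the 2 genes may not be fully separated.

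SNHG7, host of SNORA17A and SNORA17B, had 11.3, 11.9 and 12.1 FPKM in DMSO and 11.8, 8.88 and 9.34 in PD. PD replicate 1 was inside the DMSO range and the other PD samples below it, and the difference of -0.22 did not pass (adjusted p = 0.195, limma). DANCR, an RNA named for its role in holding back differentiation, hosts SNORA26. It had 8.23, 11.2 and 11.1 FPKM in DMSO and 9.80, 7.64 and 9.81 in PD, and the groups overlapped (log2 fold change -0.14, adjusted p = 0.498, limma).

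By the snoRNA entries in their genes, 2 of the 7 tested members with SNORD entries only fell (against 12.7% of all genes), 3 of the 10 with SNORA entries only fell, SNHG12, with both, fell, and 1 of the 3 with neither name (GAS5) fell. The median log2 fold change was -0.35 for the SNORD group, in which all 7 were below 0, and -0.18 for the SNORA group, in which 7 of 10 were. The ranges overlapped widely, from -0.70 to -0.04 and from -0.85 to 0.51. The difference between the 2 kinds of host was not tested, and these counts move with single libraries, as given below for the members together.

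**Figure D2:**
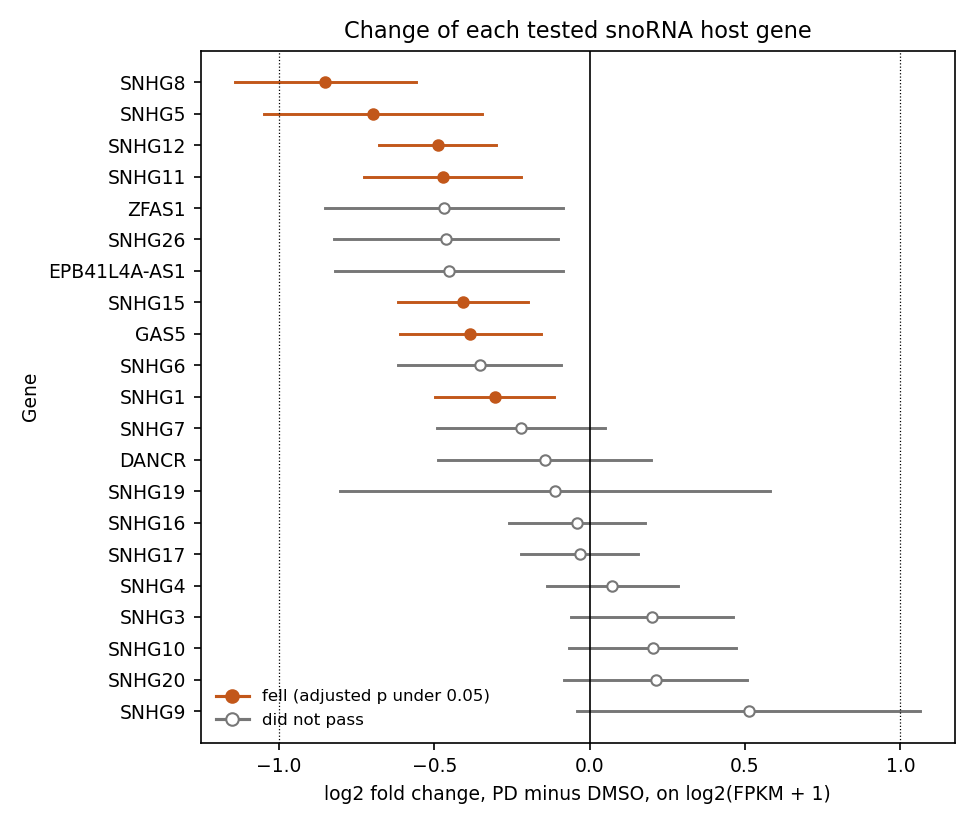
Log2 fold change (PD minus DMSO, on log2(FPKM + 1)) of each tested member with its 95% interval from limma; filled orange points fell at an adjusted p under 0.05, open grey points did not pass, and dotted lines mark 2-fold. The 7 filled points lie between -0.85 and -0.31, and no interval of an open point on the right excludes 0.

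The remaining tested members are outside the rule for genes described in full, and their values were chosen for mention after they had been seen. EPB41L4A-AS1, SNHG16, SNHG19, SNHG26, SNHG4, SNHG10, SNHG20 and SNHG9 had mean FPKM in DMSO between 0.926 (SNHG9) and 9.08 (SNHG4). EPB41L4A-AS1, host of SNORA13, was at 7.11, 5.40 and 5.64 FPKM in DMSO and 3.58, 3.64 and 5.31 in PD (log2 fold change -0.45, adjusted p = 0.0688, limma). PD replicate 3 was again the PD sample closest to DMSO. SNHG26 had a PD mean at 56.3% of that in DMSO, on 31 to 86 reads per sample (adjusted p = 0.0623, limma). SNHG16 and SNHG19 differed by -0.04 and -0.11, and SNHG4, SNHG10 and SNHG20 by 0.07, 0.20 and 0.21, and none of the 5 passed. SNHG20 shares 11154 bases with the more abundant SEC14L1 on the same strand. SNHG10 shares 1370 bases with GLRX5 on the opposite strand, so reads of these pairs may not be fully separated.

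SNHG9 was the member with the highest fold change above 0, and it rested on few reads. Its FPKM was 0.591, 0.851 and 1.34 in DMSO and 2.36, 2.01 and 0.969 in PD, from 5, 8 and 13 reads against 20, 17 and 8. PD replicate 3 lay inside the DMSO range, and the difference of 0.51 did not pass (95% interval -0.04 to 1.06, adjusted p = 0.150, limma). Without PD replicate 3 it passed (0.74, adjusted p = 0.0356, limma).

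The 8 members under the filter were SNHG14, SNHG18, SNHG21, SNHG22, SNHG25, SNHG27 and both SNHG28 entries. The most reads that any of them had in 1 sample was 10, for SNHG21 and for SNHG22, so no change could be measured for them. SNHG14, the long host that carries 84 of the 137 snoRNA entries found inside the members, had at most 5 reads in a sample and could not be assessed.

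How firmly each change held was examined in 19 alternative settings of filter, scaling, variance model and samples. SNHG8 and SNHG12 passed in all 19, with log2 fold changes from -0.97 to -0.75 and from -0.60 to -0.47. SNHG5 passed in 18, with an adjusted p of 0.0521 without DMSO replicate 3. SNHG11 and SNHG15 passed in 15, SNHG1 in 14 and GAS5 in 13, and the direction of these 7 was the same in all 19.

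Beside SNHG5, single libraries decided the calls of 4 others of the 7. GAS5 had a limma adjusted p of 0.0764 when DMSO replicate 2 was left out, 0.0877 for DMSO replicate 3, 0.086 for PD replicate 1 and 0.0995 for PD replicate 2, and of 0.0574 when no filter was used. SNHG1 had 0.113, 0.108, 0.104 and 0.109 in limma without the same 4 libraries in turn. SNHG15 missed the threshold without DMSO replicate 2 (0.0591 in limma), DMSO replicate 3 (0.0641) or PD replicate 2 (0.0673). SNHG11 missed it without DMSO replicate 3 (0.0679 in limma), PD replicate 1 (0.0595) or PD replicate 2 (0.0702). Of the 21 tested members 4 fell when DMSO replicate 2 was left out, 2 for DMSO replicate 3, 4 for PD replicate 1 and 3 for PD replicate 2, while 8 fell for DMSO replicate 1 and 10 for PD replicate 3. These fits have fewer samples, and between 6.33% and 12.2% of all genes fell in them, against 12.7% with all 6 samples.

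DMSO replicate 1 and PD replicate 3 were the 2 samples with a negative correlation with GC content, a sign read from these same data. PD replicate 3 held the highest PD value of GAS5 (81.6 FPKM) and SNHG8 (40.4) but the lowest of ZFAS1 (37.0). DMSO replicate 1 held the lowest DMSO value of ZFAS1 (41.5) and SNHG5 (16.1) but the highest of SNHG8 (65.0). Leaving such values out moves the differences by itself. Without DMSO replicate 1 and PD replicate 3, 10 members fell and SNHG9 rose, where 15.9% of all genes fell and 17.7% rose. The 7 were among the 10, with log2 fold changes of -0.94 for SNHG8, -0.89 for SNHG5, -0.52 for SNHG11, -0.49 for SNHG15, -0.48 for SNHG12, -0.47 for GAS5 and -0.37 for SNHG1. The other 3 were ZFAS1 (-0.62), EPB41L4A-AS1 (-0.50) and SNHG6 (-0.48). Of the members that did not pass, DANCR moved from -0.14 to -0.33, SNHG19 from -0.11 to -0.35, SNHG3 from 0.20 to 0.09 and SNHG20 from 0.21 to 0.09. SNHG17 was at -0.03 in both fits, and SNHG7 was at -0.22 with all 6 samples and -0.21 without these 2. With a correction for GC content 11 fell, against 21.6% of all genes, and the median over the tested members was -0.30.

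**Figure D3:**
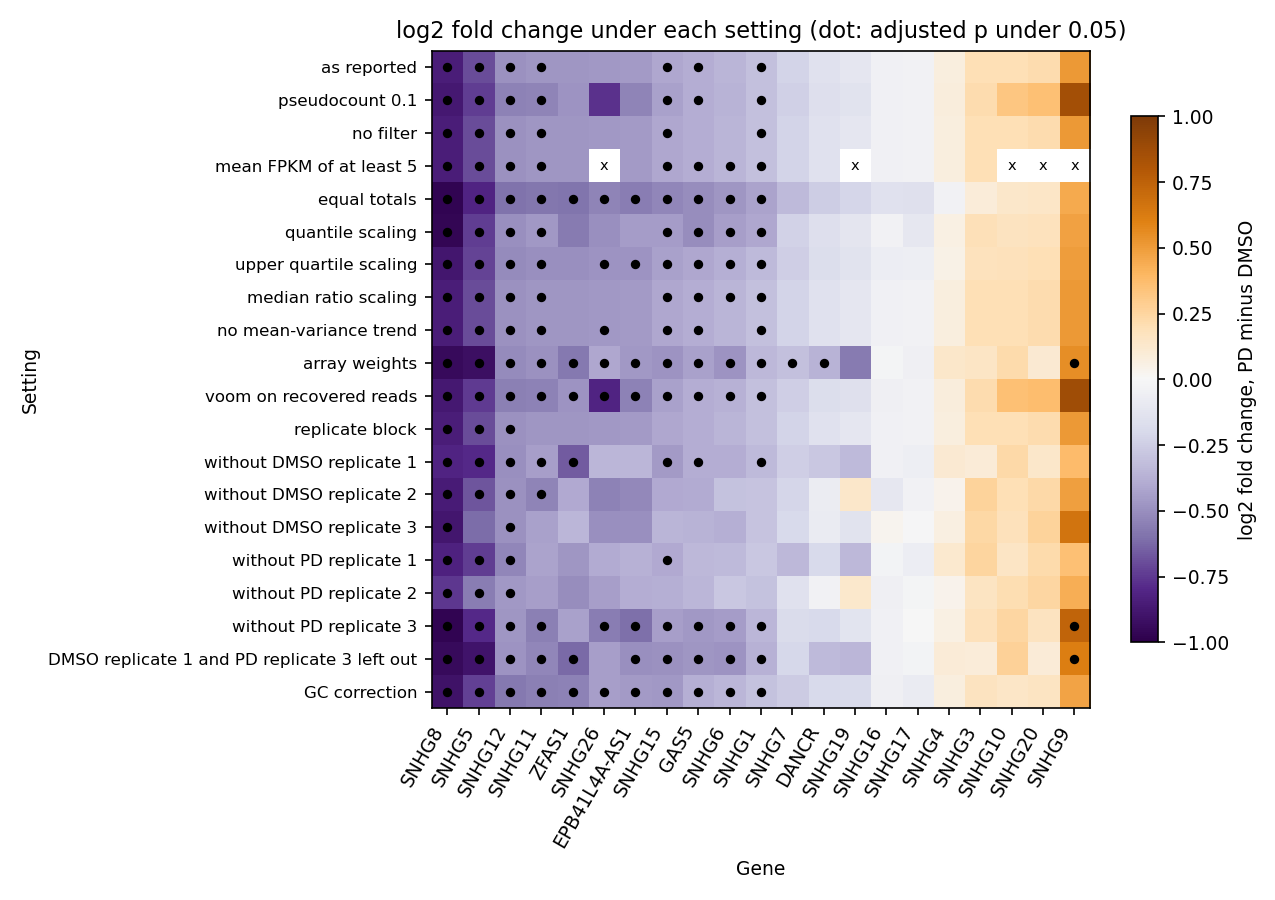
Log2 fold change (PD minus DMSO, colour scale; purple below 0, orange above) of each tested member (columns) under the main fit and 19 alternatives (rows); a dot marks an adjusted p under 0.05 and a cross a gene that the filter of that setting left out. SNHG8 and SNHG12 carry a dot in every row, and SNHG17 and SNHG3 in none.

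The starts of the members were examined for a run of pyrimidines. TOP mRNAs, the class to which ribosomal protein mRNAs belong, begin with a C followed by a run of pyrimidines, which the growth-controlled kinase mTORC1 uses to set their translation and stability through LARP1. In RefSeq (GRCh38.p14) 24 of the 28 symbols had a promoter entry. The longest unbroken run of C and T that touched the 21 bases around the annotated start was at least 6 letters long in 15 of the 24, against 31.9% of 35116 promoters searched the same way on the strand of the gene. The median run was 6 letters in the members and 4 in all promoters. The starts are shown for the 6 members that fell and have an entry and for SNHG17 and SNHG16, hosts near 0 change. Each line gives 50 bases of sense strand around the start, with the run in capitals. The search did not require a C at the run's first place. Among those shown, the run starts with C in SNHG8, SNHG12 and SNHG11 and with T in the others.
SNHG8, chr4:118278737-118278786, plus strand: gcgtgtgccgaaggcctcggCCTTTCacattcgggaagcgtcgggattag
SNHG5, chr6:85678709-85678758, minus strand: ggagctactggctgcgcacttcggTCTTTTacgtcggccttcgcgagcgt
SNHG12, chr1:28581849-28581898, minus strand: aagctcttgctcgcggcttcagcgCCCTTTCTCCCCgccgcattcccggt
SNHG1, chr11:62855861-62855910, minus strand: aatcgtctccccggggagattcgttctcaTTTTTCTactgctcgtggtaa
SNHG11, chr20:38446629-38446678, plus strand: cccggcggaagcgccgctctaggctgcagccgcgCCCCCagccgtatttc
GAS5, chr1:173869021-173869070, minus strand: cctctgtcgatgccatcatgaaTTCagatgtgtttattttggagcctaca
SNHG17, chr20:38435304-38435353, minus strand: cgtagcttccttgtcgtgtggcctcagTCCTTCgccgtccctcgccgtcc
SNHG16, chr17:76557739-76557788, plus strand: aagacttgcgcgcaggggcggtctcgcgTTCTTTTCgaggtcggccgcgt

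A run of 6 letters or more was present in 4 of the 6 members that fell and in 8 of the 12 tested members with an entry that did not pass. Across the 18 tested members with an entry, the run's length and the log2 fold change had a Spearman rho of -0.101, given as a description. SNHG17 and SNHG16, with runs of 6 and 8 letters, differed by -0.03 and -0.04 on the log2 scale, while GAS5, with 3 letters in this window, fell. The RefSeq start of GAS5 lies upstream of the 5′ end that the expression table gives, at 173869045 against 173868882. Those of SNHG12 (28581873 against 28583132), SNHG20 (77088643 against 77086716) and ZFAS1 (49278642 against 49278178) lie inside the annotated gene. Larger distances were present in 3 symbols under the filter. They were SNHG14 (24823608 against 24978583), SNHG27 (131764838 against 131773302) and SNHG28 (159855037 against 159873053 for its protein coding entry). Of these, SNHG14 and SNHG28 had runs of 7 and 6 letters. Smaller shifts were present in other tested members, SNHG8 and SNHG11 among them. Other starts of these genes were not searched. A run is only a match of letters in this window, and where transcription began in these cells was not measured. Of the 6 members that fell and have an entry, only SNHG5 has its annotated 5′ end inside the window shown. The counts and the rho therefore cannot say whether a run at the start of the measured RNA goes with the change.

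The proteins and pathways that make, use or remove the hosts' products were described from lists chosen with earlier results of these data known. Beside their counts, 14.3% of all genes tested rose and 12.7% fell. Of 8 core proteins of snoRNA particles, 1 rose, SNU13, a protein that binds box C/D snoRNAs (39.3 ± 3.65 FPKM in DMSO, 58.7 ± 3.72 in PD, SD, n = 3, adjusted p = 0.00712, limma), and 0 fell. The list's median was 0.02, and it was below 0 with equal totals (-0.10) and with quantile (-0.07) or upper quartile scaling (-0.01). The other C/D proteins NOP58 and NOP56 and the H/ACA protein NOP10 did not pass, with log2 fold changes of -0.30, -0.18 and 0.40.

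Of 13 factors that assemble the particles or process snoRNA ends, 2 rose and 1 fell (median -0.04). The shares of all genes tested were 14.3% and 12.7%, here and for the lists that follow. NOLC1, the nucleolar chaperone of snoRNA particles, rose from 82.0 ± 3.21 to 136 ± 2.61 FPKM (SD, n = 3, adjusted p = 0.00122, limma). NUFIP1, an assembly factor, rose by 0.38 on the log2 scale (adjusted p = 0.0433, limma), and TGS1, which trimethylates the cap of snoRNAs that have one, fell by 0.31 (adjusted p = 0.0412, limma). In this list 0 fell when any 1 DMSO library, PD replicate 1 or PD replicate 2 was left out. Only 1 rose when DMSO replicate 2, DMSO replicate 3, PD replicate 2 or PD replicate 3 was left out. Of 12 nonsense-mediated decay factors, 1 rose (UPF2, log2 fold change 0.37) and 2 fell (UPF3B, -0.38, and UPF3A, -0.28), with a median of -0.04. Without DMSO replicate 3, or without PD replicate 2, 0 of these decay factors rose and 0 fell. Of 5 genes of the exon junction complex 0 rose and 0 fell.

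Ribosomal protein mRNAs share the pyrimidine start with several hosts. Their counts stand beside 14.3% of all genes tested that rose and 12.7% that fell. Of 47 large subunit genes 0 rose and 1, RPL12, fell (log2 fold change -0.61, adjusted p = 0.0116, limma), with a median of 0.09 that turned to -0.03 with equal totals and -0.04 with quantile scaling. Of 32 small subunit genes 1, RPS25, rose (0.69, adjusted p = 0.0365, limma) and 0 fell, with a median of -0.01. RPS25 did not pass when DMSO replicate 2 or any 1 PD library was left out, and RPL12 did not when PD replicate 2 was. With quantile scaling 6 large and 8 small subunit genes fell. Of 15 other TOP mRNAs 2 rose, the elongation factor EEF1A1 (0.49) and the initiation factor EIF4B (0.39), and 0 fell. Of 25 genes of RNA polymerase I and ribosomal RNA processing 2 rose, RRP12 (0.77) and POLR1C (0.51), and 0 fell.

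Of 14 genes of the mTORC1 pathway and its inhibitors 5 fell and 2 rose, with a median of -0.24, where 12.7% of all genes fell and 14.3% rose. The number that fell was 0 when PD replicate 2 was left out, 1 for DMSO replicate 3, 2 for DMSO replicate 2 or PD replicate 1 and 3 for PD replicate 3. It was 0 with no filter and 8 with array weights, with the GC correction or without DMSO replicate 1 and PD replicate 3. EIF4EBP1, the translation repressor that mTORC1 phosphorylates, fell by 1.18 on the log2 scale (adjusted p = 0.0141, limma), and DDIT4, an inhibitor of the pathway, fell by 0.84 (adjusted p = 0.0303, limma). TSC1 and AKT1S1, which both restrain mTORC1, rose by 0.92 (adjusted p = 0.000974, limma) and 0.81 (adjusted p = 0.0101, limma). Genes that fell and genes that rose included inhibitors, so the count has no single direction for the activity of the pathway, which was not measured.

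Hosts of snoRNAs outside the rule were found by coordinates. Of 199 tested protein-coding hosts 27 fell and 23 rose, with a median of -0.03, where 12.7% of all genes fell and 14.3% rose. The split depended on the scaling, with 55 that fell and 12 that rose with equal totals and 49 and 18 with quantile scaling. It was 15 and 11 when DMSO replicate 2 was left out, 14 and 12 for DMSO replicate 3, 17 and 13 for PD replicate 1, and 9 and 8 for PD replicate 2. HSPA8, the constitutive HSP70 chaperone and host of several SNORD14 genes, rose from 19.8 ± 0.950 to 64.8 ± 5.05 FPKM (SD, n = 3, adjusted p = 8.28e-05, limma). WEE1 (log2 fold change 0.95) and ATP6V0E1 (0.80) rose too, and SKAP1 (-0.96), C19orf48 (-0.85) and NCAPD2 (-0.80) fell. Of 13 tested noncoding hosts outside the rule 2 fell and 1 rose, with a median of -0.15. The current nomenclature gives SNHG names to 4 genes outside the rule. LRRC75A-AS1 (SNHG29) had 60.1, 62.8 and 69.3 FPKM in DMSO and 44.2, 39.4 and 45.5 in PD and fell to 67.1% (log2 fold change -0.56, adjusted p = 0.00652, limma). C6orf48 (SNHG32, annotated as protein coding) and LINC02001 (SNHG30) did not pass, with log2 fold changes of -0.19 (adjusted p = 0.411, limma) and -0.0026 (adjusted p = 0.991, limma), and AC016708.1 (SNHG31) was under the filter. The other 2 noncoding hosts that passed were LINC00888 (fell, -0.65) and RPL32P3 (rose, 0.44).

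**Figure D4:**
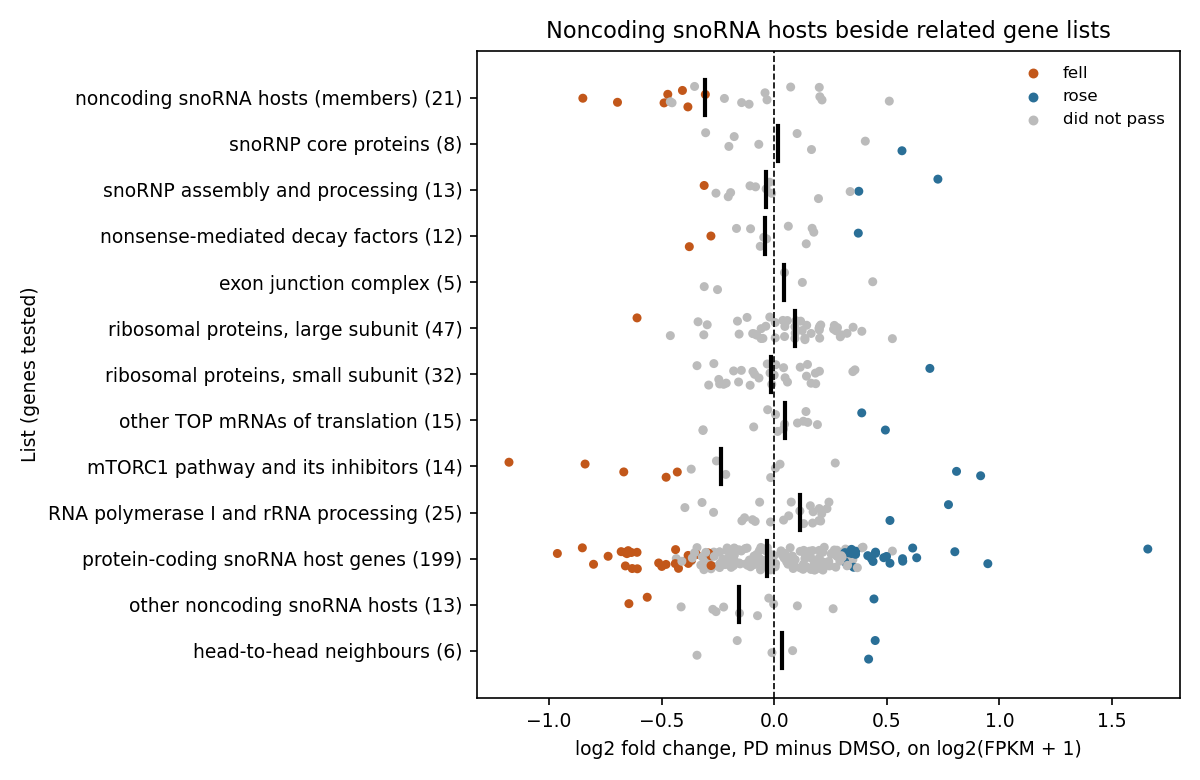
Log2 fold change (PD minus DMSO, on log2(FPKM + 1)) of every tested gene in the members and in the related lists, with the number tested in brackets; orange points fell, blue points rose, grey points did not pass, and black bars are medians. The bar of the members, at -0.31, is farther left than those of the other lists, of which the mTORC1 list is the next at -0.24.

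The starts of 7 members lie within 1000 bases of the start of a protein-coding gene on the opposite strand, and in 5 of these pairs both genes were tested. SNHG1 starts 188 bases from SLC3A2, the heavy chain of amino acid transporters. SLC3A2 stood at 135, 140 and 138 FPKM in DMSO and at 192, 184 and 190 in PD and rose (log2 fold change 0.45, adjusted p = 0.00725, limma), while SNHG1 fell. The ratio of SNHG1 to SLC3A2 was 0.421, 0.429 and 0.436 in DMSO and 0.238, 0.256 and 0.266 in PD.

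ZFAS1 and ZNFX1, an RNA helicase gene, overlap at their starts. ZNFX1 was at 10.7, 11.5 and 10.8 FPKM in DMSO and 14.5, 15.7 and 15.0 in PD and rose (0.42, adjusted p = 0.00933, limma). The ratio of ZFAS1 to ZNFX1 was 3.88, 5.18 and 5.99 in DMSO and 2.69, 2.61 and 2.47 in PD, without overlap, including DMSO replicate 1. For GAS5 and ZBTB37, whose annotated genes overlap by 801 bases, the ratio was 12.7, 14.5 and 14.9 in DMSO and 9.80, 8.55 and 12.1 in PD, while ZBTB37 itself did not pass (0.08). SNHG9 starts 99 bases from RPS2, and its ratio was higher in PD by 1.27 on the log2 scale, on the few reads given above. For SNHG19 and TRAF7 the groups overlapped in ratio, with a difference of 0.03.

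In an exact two-sided permutation test of each log2 ratio over the 6 samples, the 4 pairs without overlap had p = 0.1, the smallest that 3 against 3 samples can give, and SNHG19 and TRAF7 had p = 1. After Benjamini-Hochberg adjustment over the 5 pairs the 4 values were 0.125 in this exact test, so the design could not reach 0.05. Of the tested members 10 overlap a gene on the opposite strand and 5 a gene on their own strand. The library kit keeps the strand, per the labels' protocols, but whether counting used it was not given in the sources used here, so some reads of overlapping pairs may have been shared.

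**Figure D5:**
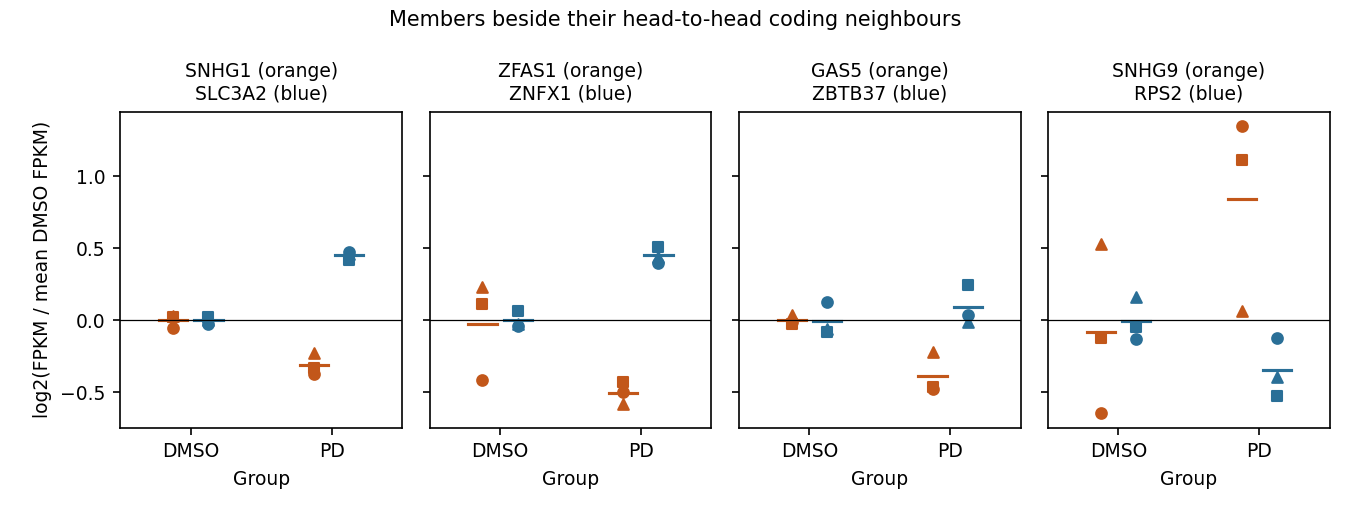
Level of 4 members (orange) and of the coding gene that starts beside each (blue) in every sample, as log2 of FPKM over the mean DMSO FPKM of the same gene; circles, squares and triangles are replicates 1, 2 and 3, and bars are group means. In PD the 3 SNHG1 points lie below 0 and the 3 SLC3A2 points above it, and the same holds for ZFAS1 and ZNFX1.

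Among the 21 tested members, the Spearman rho of the change was -0.538 with the DMSO level, -0.351 with the number of annotated transcripts, 0.206 with gene length, 0.0896 with transcript GC content and 0.0366 with the number of snoRNA entries. These are descriptions over genes that share the same 6 samples, and the pseudocount shrinks the changes of the lowest genes. The 7 members that fell had mean DMSO levels from 7.87 to 95.4 FPKM and transcript GC contents from 42.2% to 56.6%, inside the range of the 14 that did not pass for GC content (39.2% to 66.5%).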

How the data were processed

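RNA from 6 samples of AZ-521 cells (3 DMSO, 3 PD) was sequenced, per the labels' protocols, as paired reads of a strand-keeping poly(A) library. The authors deposited FPKM values for 58735 genes with gene lengths. The aligner, the counting program and the use of strand in counting were not given in the sources used here. GRCm38 and mm10, mouse builds, are named in the submitters' processing notes, but all 58735 identifiers and coordinates are those of human GENCODE 29 (GRCh38), and 0 are mouse. Of the gene names 27 had become calendar dates and were restored through the identifiers. Columns were matched to samples by their group prefix and the number at the end of each title. FPKM multiplied by gene length gave whole reads for 100% of values within a tolerance of 0.01. They sum to 14915538 to 16341687 per sample. The scaling denominators of the deposited FPKM were 1.03, 1.10 and 1.08 times these sums in DMSO replicates 1 to 3. In PD replicates 1 to 3 they were 1.00, 0.997 and 0.947 times the sums. Read numbers carry counting error, which is large for members with few reads.

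Values were tested as log2(FPKM + 1) with limma 3.58.1 (mean-variance trend, R 4.3.3), in 13579 genes whose FPKM reached 1 in 3 or more samples, with Benjamini-Hochberg adjustment over all of them and no covariate. Count models were not run, and the recovered reads entered a fit only with voom and with equal totals. They also gave the read sums, shares and read numbers above. Members and lists were chosen with earlier results of these data known. Members described in full were those that passed or averaged 10 FPKM or more in either group. Up to 4 genes per list were named (those past the threshold with the largest change, or the most abundant where fewer than 2 passed), with the 3 largest rises and 3 largest falls among hosts outside the rule with a mean of at least 5 FPKM, and every tested neighbour. RPL12, RPS25, LRRC75A-AS1, LINC00888 and RPL32P3 and the other renamed SNHG genes fall outside this rule and were named after their values were seen. Alternatives varied the pseudocount (0.1), filter, scaling, variance model, replicate block, size criterion and samples. The GC correction (loess, span 0.3), the split by snoRNA kind and the snoRNA box search were chosen after seeing the data. Promoter starts are RefSeq's (GRCh38.p14), and 4 symbols had no entry. No sample was left out of the main fit. Figures were drawn with matplotlib 3.10.9.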

Additional observations from a re-analysis of the deposited data

How the results depend on the processing

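Of the 21 tested members 7 fell and 0 rose as reported. The number that fell was 11 with equal totals, 11 with voom, 11 with the GC correction, 13 with array weights and 0 at a 2-fold criterion, and from 2 to 10 when 1 sample was left out. The number that rose was 1 (SNHG9) with array weights and without DMSO replicate 1 and PD replicate 3 together, and from 0 to 1 when 1 sample was left out. The members' median stayed below 0 in all settings run, from -0.43 to -0.28 over the settings with the same 21 genes. Equal totals replaced the deposited scaling denominators and moved the median of all genes by -0.101. Relative to the read sums, those denominators were larger in every DMSO sample than in any PD sample. Of the members near 0, SNHG4 was -0.04 with equal totals, SNHG16 was 0.02 without DMSO replicate 3 and SNHG19 was 0.13 without DMSO replicate 2. Over all genes 1075 fell with no filter, 1254 rose and 960 fell with a mean FPKM of at least 5, 2812 fell with equal totals, 2928 fell with the GC correction, 3189 rose and 3112 fell with array weights, and 386 rose and 133 fell at 2-fold. With 1 sample left out from 1144 to 1877 rose and from 859 to 1657 fell. Apart from fewer samples or genes, the size criterion and the changed denominators of equal totals, the cause of these shifts was not tested.

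Deviations from the group means of same-numbered samples correlated at -0.388, 0.168 and -0.163. With 3 samples per group these values cannot show whether same-numbered samples were handled together. With the replicate block 3 members (SNHG8, SNHG5 and SNHG12) fell, and 1089 genes rose and 755 fell. The other 4 members had a limma adjusted p from 0.0538 to 0.107 with the block, which leaves fewer residual degrees of freedom. Of the mTORC1 list 0 fell with it. Genes under about 1 FPKM and members with few reads, such as SNHG9, are limited by depth.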
